A study of Mus musculus with 4 samples.

Results

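The genes described here are 9 enzymes that reduce or oxidize carbonyls, quinones, alcohols, aldehydes and steroids, namely Cbr1, Cbr3, Ptgr1, Nqo1, Adh7, Aox1, Hsd11b1, Cyp2s1 and Cyp1b1. They were taken by name from the 34745 genes in the deposited table, and all 9 had a row. The list was selected on the difference between macrophages given dimethyl itaconate (DI) and those given vehicle in these same 4 libraries, which was known when it was drawn up. Differences of the 9 genes between the groups are therefore given as a description, with no p-value. Related genes, taken by patterns in their symbols or named in lists, were tested. Their lists were also drawn up with earlier results of these data known, so their counts and p-values are not independent support.

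BMMs are bone marrow derived macrophages, the precursors from which RANKL, with M-CSF, induces osteoclasts. In this study they were taken from wild-type male C57BL/6 mice of 8 weeks, kept without serum for 12 h and then given complete medium with RANKL (100 ng/mL) for 24 h. The RANKL+DI group also received DI, a membrane-permeable ester of the macrophage metabolite itaconate, and the RANKL+Veh group received its vehicle, DMSO. The dose of DI is 20 mM in the labels and 20 μM in the methods. There were 2 libraries in each group, and both groups carried RANKL, so no comparison with resting BMMs was possible. Nothing in the labels says whether the libraries came from separate mice or cultures, so errors and p-values measure only the spread between these libraries.

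Enzymes of this kind form the first phase of the handling of foreign and reactive compounds. Reductases such as those of the Cbr, Nqo and Ptgr families use NADPH to turn carbonyls, quinones and reactive enones into less reactive alcohols, hydroquinones and saturated ketones. Oxidases and cytochrome P450 enzymes insert oxygen into their substrates, and P450 enzymes receive their electrons from Por and cytochrome b5. NRF2, a transcription factor that electrophiles release from KEAP1, is known to drive Nqo1 and other reductases through antioxidant response elements (ARE). The aryl hydrocarbon receptor (AhR), a sensor of aromatic ligands, is known to drive Cyp1a1, Cyp1b1 and Nqo1 through xenobiotic response elements (XRE).

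The libraries held 16085692 to 19403480 counts each, and 12590 genes passed edgeR's filter on low counts. All 9 genes were among them. Adh7 and Hsd11b1 passed through the RANKL+DI libraries, because only 1 of the 2 vehicle libraries exceeded the filter level of 0.558 CPM (counts scaled by library size). In bulk samples such as these, fewer cells of a type and less RNA per cell cannot be told apart. The cells showed the markers of their label. Macrophage markers summed to between 22440 and 29430 CPM per library. Of their 9 tested rows (the name Itgam has 2 rows) 7 were higher and 2 lower with DI. At an adjusted p under 0.05 (edgeR), 5 were called higher and 2 lower. Of the 8 tested osteoclast markers 2 were higher and 6 lower, of which 2 and 5 were called. Over all tested genes 7.14% were called higher and 7.7% lower. Stromal markers summed to 50.2 and 54.2 CPM with DI and to 56.3 and 62.9 CPM with vehicle, mainly Col1a1, Col1a2 and Postn, while Lum and Lepr had no count. Epithelial, neutrophil, B cell, T and NK cell, mast cell and basophil, and erythroid markers summed to at most 11.2 CPM per list and library. None of the tested markers of these contaminating cell types was called by edgeR or DESeq2, and 2 were under an unadjusted p of 0.05. Their part in the levels of the 9 genes was not tested.

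**Figure D1:**
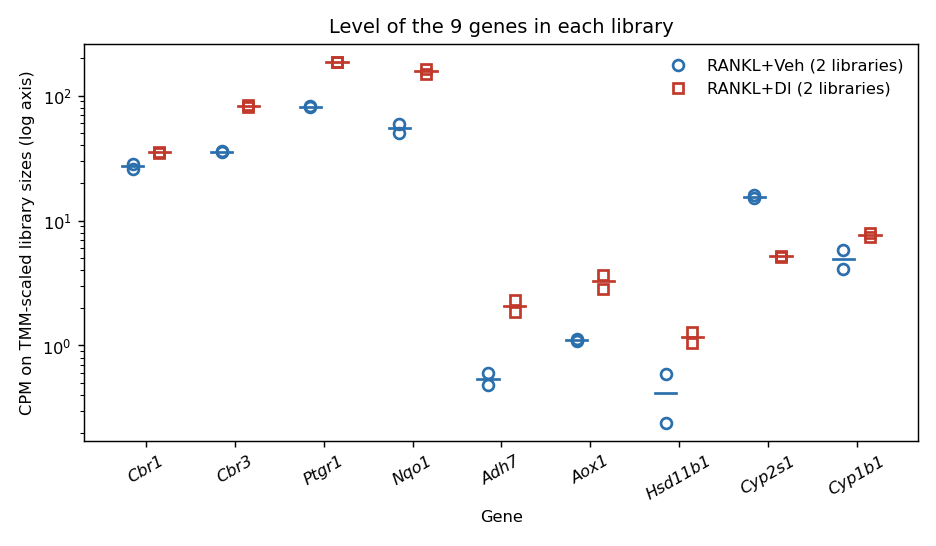
Level of each of the 9 genes in CPM on TMM-scaled library sizes, on a log axis. Circles are the 2 RANKL+Veh libraries, squares the 2 RANKL+DI libraries and bars the group means. Both DI libraries lie above both vehicle libraries for 8 genes and below them for Cyp2s1.

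With DI, 8 of the 9 genes were higher than with vehicle and only Cyp2s1 was lower. For all 9 the 2 groups did not overlap, as was also the case for 58.6% of all tested genes. The threshold of 0.05 on the adjusted p (edgeR, quasi-likelihood) was passed by 7 of the 9, against 14.8% of all tested genes. Of these 7, 6 were higher and 1 was lower, against 7.14% and 7.7% of all tested genes. Hsd11b1 and Cyp1b1 did not reach it. Since this contrast entered the choice of the genes, nothing is read from these counts. With any library left out fewer of the 9 passed, as was also the case over all tested genes. Cbr1 then never passed, and Adh7 and Aox1 passed only without RANKL+DI replicate 1. The median log2 fold change was 1.22 over the 9 genes and 0.0012 over all tested genes. Together the 9 genes took 0.0453% and 0.0471% of all counts with DI and 0.0237% and 0.0224% with vehicle. Ptgr1, Nqo1 and Cbr3 made up 88.5% and 88.8% of their summed CPM with DI and 77.9% and 77.4% with vehicle.

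The genes fall into an abundant and a scarce class. FPKM, the authors' unit, which divides by gene length and so allows levels to be compared between genes, placed Ptgr1 at 36.9 ± 0.592, Nqo1 at 36.8 ± 4.33, Cbr3 at 31.5 ± 0.241 and Cbr1 at 22.7 ± 1.37 FPKM with vehicle (SD, n = 2 each). These 4 reductases stood at the 84.8th to the 91.0th percentile of the tested genes. The oxidizing enzymes and the steroid reductase lay far lower with vehicle, with Cyp2s1 at 2.32 ± 0.0805, Cyp1b1 at 0.994 ± 0.240, Adh7 at 0.132 ± 0.0201, Aox1 at 0.120 ± 0.00363 and Hsd11b1 at 0.0682 ± 0.0407 FPKM (SD, n = 2 each). In that order the ranges of Ptgr1 and Nqo1 overlapped, as did those of Adh7 and Aox1, and all other neighbours were separate. With DI the order became Nqo1 (97.0 FPKM), Ptgr1 (78.1), Cbr3 (68.1), Cbr1 (27.4), Cyp1b1 (1.44), Cyp2s1 (0.718), Adh7 (0.470), Aox1 (0.330) and Hsd11b1 (0.178 FPKM), with no overlap between any neighbours. Nqo1 and Ptgr1, which overlapped with vehicle, were thus separate with DI, and Cyp1b1 lay above Cyp2s1 with DI and below it with vehicle.

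Nqo1 reduces quinones straight to hydroquinones and is the best known target of NRF2. It lies on chromosome 8 from 107388225 to 107403206 (ENSMUSG00000003849, GRCm38, minus strand). Its level was 150.0 and 162.6 CPM in the DI libraries and 59.8 and 50.6 CPM in the vehicle libraries. Both DI libraries lay far above both vehicle libraries, and its log2 fold change of 1.501 (standard error 0.090) was the highest of the 4 abundant reductases. The libraries of each group differed by more than for Ptgr1 or Cbr3, with a coefficient of variation of 5.67% with DI and 11.7% with vehicle. Its paralog Nqo2, which uses dihydronicotinamide riboside in place of NADPH, had 92.3 and 87.4 CPM with DI and 84.4 and 91.6 CPM with vehicle. The groups of Nqo2 overlapped, and differed by 0.03 on the log2 scale (standard error 0.064, adjusted p = 0.800, edgeR), and 18.9% of its exons lie opposite Serpinb6a. In FPKM, Nqo1 stood at 4.16 and 4.76 times Nqo2 with DI and at 1.81 and 1.41 times with vehicle.

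Ptgr1, prostaglandin reductase 1, saturates the reactive double bond of enals and enones and also inactivates leukotriene B4. The gene is on chromosome 4 from 58965439 to 58987119 (ENSMUSG00000028378, minus strand). It had the most counts of the 9 genes, 9560 over the libraries. Levels were 186.1 and 185.6 CPM with DI and 82.6 and 80.8 CPM with vehicle, so that replicates nearly coincided. The log2 fold change was 1.185 with a standard error of 0.042, the smallest among the 9. Its paralog Ptgr2 had 48.9 and 47.0 CPM with DI and 46.9 and 50.9 CPM with vehicle, and did not separate the groups (log2 fold change -0.03, standard error 0.071, adjusted p = 0.841, edgeR). Over 32.0% of its exons Ptgr2 has Gm47484 on the opposite strand, so its count is less certain.

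Cbr3 and Cbr1 are NADPH-dependent carbonyl reductases of the short-chain dehydrogenase family, which reduce quinones and drugs with a ketone such as the anthracyclines. They are neighbours on the plus strand of chromosome 16, with Cbr1 (ENSMUSG00000051483) from 93607837 to 93610505 and Cbr3 (ENSMUSG00000022947) from 93683215 to 93690990, 72710 bases apart. Cbr3 had 81.0 and 84.4 CPM with DI and 35.4 and 35.8 CPM with vehicle, which is 1.22 on the log2 scale (standard error 0.061). Cbr1 had 35.4 and 34.9 CPM with DI and 28.3 and 26.0 CPM with vehicle, which is 0.37 on the log2 scale (standard error 0.075). With vehicle the 2 genes stood close in CPM, while with DI Cbr3 was far above Cbr1. The ratio of their FPKM, Cbr3 over Cbr1, was 2.42 and 2.55 with DI and 1.32 and 1.46 with vehicle. This difference within the pair was not tested, since both genes were chosen with their changes known. Cbr4, a mitochondrial member of the same family, had 10.1 and 6.61 CPM with DI and 8.21 and 9.19 CPM with vehicle and did not pass (adjusted p = 0.894, edgeR).

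Adh7 and Aox1 act on alcohols and aldehydes and were scarce. Adh7 is the class IV alcohol dehydrogenase, known for oxidizing retinol, and lies on chromosome 3 from 138217760 to 138233382 (ENSMUSG00000055301, plus strand). Its counts were 32 and 43 in the DI libraries and 9 and 10 in the vehicle libraries. On these counts the ratio of DI to vehicle was 3.88. Its log2 fold change was 1.94 (standard error 0.33). An antisense transcript, 0610031O16Rik, lies opposite 2.85% of its exons. Aox1 is a molybdenum-containing oxidase of aldehydes and nitrogen heterocycles on chromosome 1 from 58029931 to 58106413 (ENSMUSG00000063558, plus strand). Its counts were 49 and 69 in the DI libraries and 21 and 18 in the vehicle libraries. The ratio was 2.97 and the log2 fold change 1.56 (standard error 0.26). Both genes, chosen with this contrast known, separated the groups, as did 58.6% of all tested genes. They did so on fewer than 160 counts each over the libraries, and Adh7 passed the filter through the RANKL+DI libraries. Their relatives, given here after their values were seen, included Adh5, which metabolizes formaldehyde, at 111.7 and 111 CPM with DI and 102.3 and 102.7 CPM with vehicle (log2 fold change 0.12). The counts of Aox2 were 22 and 12 in the DI and 21 and 23 in the vehicle libraries, which overlapped. Adh1, Adh4, Adh6a, Adh6b and Aox3 had no count. Xdh, the related enzyme that makes uric acid, was abundant at 377 and 383 CPM with DI and 336 and 354.5 CPM with vehicle, and did not pass (log2 fold change 0.14, adjusted p = 0.0821, edgeR).

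Hsd11b1 reduces inert glucocorticoids to active corticosterone in the endoplasmic reticulum. It was the scarcest of the 9, on chromosome 1 from 193221634 to 193264075 (ENSMUSG00000016194, minus strand). The counts were 18 and 24 with DI and 11 and 4 with vehicle. The vehicle libraries differed from each other with a coefficient of variation of 59.7%, although both lay below the DI libraries. The log2 fold change was 1.45 (standard error 0.47), with 2.25 when RANKL+Veh replicate 1 was left out and 0.98 without RANKL+Veh replicate 2. The opposite enzyme Hsd11b2, named here after its values were seen, had 4 counts in all. H6pd, which supplies NADPH to Hsd11b1 in the lumen of the reticulum, rose from 113.8 and 112.1 CPM to 144 and 145 CPM (log2 fold change 0.36, standard error 0.042, adjusted p = 0.00467, edgeR).

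Cyp2s1 and Cyp1b1, the cytochrome P450 genes of the list, differed in opposite directions. Cyp2s1 oxidizes retinoids and eicosanoids and lies on chromosome 7 from 25802475 to 25816913 (ENSMUSG00000040703, minus strand). It had 5.13 and 5.23 CPM with DI and 15.9 and 15.2 CPM with vehicle, so it was 3.01-fold lower with DI. Its log2 fold change was -1.59 (standard error 0.12), and 5.27% of its exons lie opposite Gm26707. Cyp1b1 oxidizes polycyclic hydrocarbons and oestrogens and is a textbook target of AhR, on chromosome 17 from 79706953 to 79715041 (ENSMUSG00000024087, minus strand). It had 7.98 and 7.36 CPM with DI and 4.08 and 5.76 CPM with vehicle, which is 0.65 on the log2 scale (standard error 0.19). The vehicle libraries spread more than those with DI, and its log2 fold change was 0.41 without RANKL+Veh replicate 1 and 0.91 without RANKL+Veh replicate 2.

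**Figure D2:**
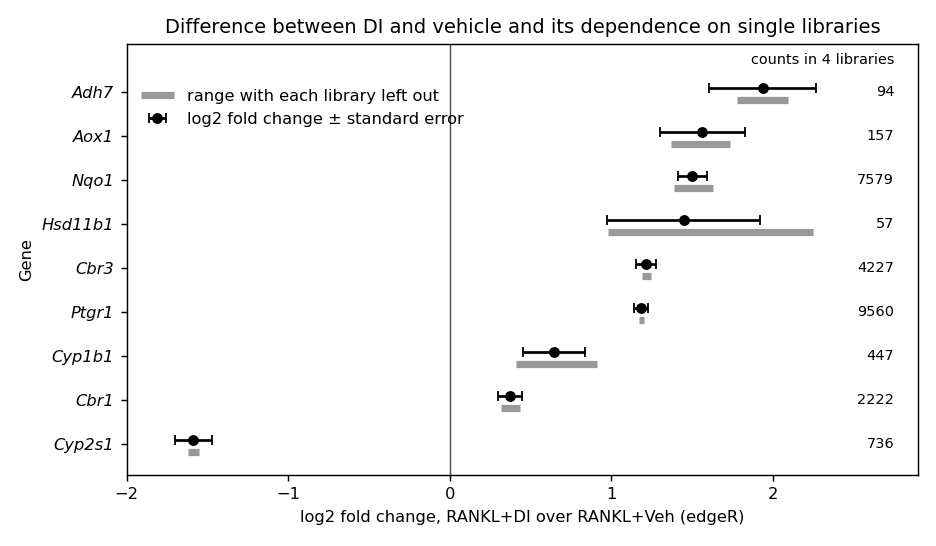
The log2 fold change of each gene (black points, bars are the standard error from edgeR) with the range obtained when each of the 4 libraries was left out (grey bars) and the summed counts on the right. The grey range is narrow for Ptgr1, Cbr3 and Cyp2s1 and widest for Hsd11b1, from 0.98 to 2.25, on 57 counts.

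The sequence upstream of each start site was searched for the core letters of both elements. RefSeq promoters (GRCm38.p6) matched all 9 genes, with 1 start site each, and the 250 bases before the start were read. The ARE core TGACNNNGC, on either strand, was present in 1 of the 9, Hsd11b1, against 10.2% of 32851 promoters of this length. The XRE core GCGTG, on either strand, was present in 4, Cbr1, Aox1, Hsd11b1 and Cyp1b1, against 28.2% of the promoters. No core of either kind was found in this window for Cbr3, Ptgr1, Nqo1, Adh7 or Cyp2s1, which says nothing of sequence further away. The promoters of the neighbours Cbr1 and Cbr3 are shown because these paralogs differed in their levels with DI, and those of Hsd11b1 and Cyp1b1 because they hold the single ARE core and the XRE core of the textbook AhR target. Capitals mark the matches, which are the reverse complement of the core where it lies on the other strand.
Cbr1, chr16:93607587-93607836, plus strand: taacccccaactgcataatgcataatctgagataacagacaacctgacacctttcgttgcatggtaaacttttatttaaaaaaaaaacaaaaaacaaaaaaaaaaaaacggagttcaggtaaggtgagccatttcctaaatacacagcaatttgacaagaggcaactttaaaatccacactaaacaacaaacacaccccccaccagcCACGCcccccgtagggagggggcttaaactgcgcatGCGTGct
Cbr3, chr16:93682969-93683218, plus strand: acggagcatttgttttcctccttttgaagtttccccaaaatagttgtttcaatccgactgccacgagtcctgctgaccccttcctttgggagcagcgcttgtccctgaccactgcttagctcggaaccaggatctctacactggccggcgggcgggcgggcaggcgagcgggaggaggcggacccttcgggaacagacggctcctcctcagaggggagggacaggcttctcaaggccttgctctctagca
Hsd11b1, chr1:193242361-193242610, minus strand: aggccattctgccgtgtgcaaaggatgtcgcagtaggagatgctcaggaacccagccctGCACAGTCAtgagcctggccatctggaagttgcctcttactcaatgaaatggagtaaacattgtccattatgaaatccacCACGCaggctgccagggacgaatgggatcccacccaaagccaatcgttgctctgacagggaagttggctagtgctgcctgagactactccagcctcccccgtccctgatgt
Cyp1b1, chr17:79715062-79715311, minus strand: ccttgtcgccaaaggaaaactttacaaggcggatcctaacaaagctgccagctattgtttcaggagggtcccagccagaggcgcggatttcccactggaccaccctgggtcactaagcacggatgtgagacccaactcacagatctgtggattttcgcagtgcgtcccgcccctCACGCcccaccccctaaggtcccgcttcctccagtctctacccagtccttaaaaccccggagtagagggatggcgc
In Cbr1 the XRE cores lay 43 to 39 and 7 to 3 bases before the start, and in Cyp1b1 76 to 72 bases before it. By GENCODE M21 Cbr1 begins at 93605853, so its window lies inside the gene, although the deposited limits begin at 93607837. The window of Cyp2s1, up to 25816775, also lies inside its gene, which reaches to 25816913. In Hsd11b1 the ARE core lay 191 to 183 and the XRE core 111 to 107 bases before the start, which is an internal start of the gene at position 193242360. A match is a description of the letters and not a measured binding site.

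The surroundings of the 9 genes were examined next. Within 100000 bases of them lay 31 other genes with a count, of which 22 were tested. Their log2 fold changes lay between -0.48 and 0.66 with a median of -0.06. An adjusted p under 0.05 (edgeR) was reached by 5 of them, or 22.7%, against 14.8% of all tested genes. Those 5, named after their values were seen, were Dopey2 next to Cbr3 (0.28) and Tgfb1 near Cyp2s1 (0.22), which rose, and Nfat5 next to Nqo1 (-0.28), Sgol2a next to Aox1 (-0.47) and Hnrnpul1 near Cyp2s1 (-0.28), which fell. Setd4, which adjoins Cbr1 and is the nearest other gene with counts to it, had a log2 fold change of -0.10 with a standard error of 0.37. The 2 Cbr genes were the only members within this distance of each other.

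**Figure D3:**
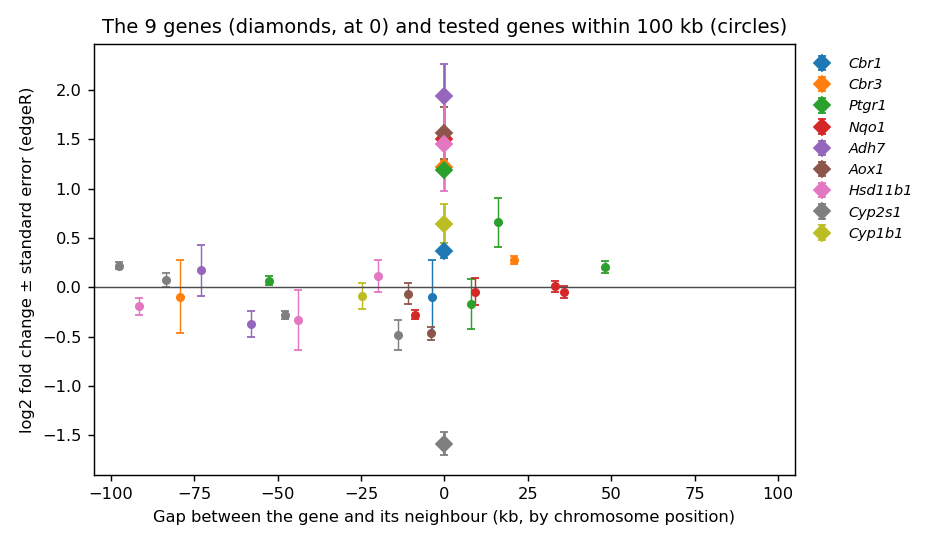
The log2 fold change and its standard error (edgeR) of the 9 genes (diamonds at a distance of 0) and of the tested genes within 100 kb (circles in the colour of the gene they lie near), by the gap between them. The circles stay between -0.48 and 0.66, while 8 diamonds lie at 0.37 or above and Cyp2s1 at -1.59.

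Related genes were then tested, in lists drawn up with earlier results of these data known. Most lists were drawn by patterns in the symbol. Those of quinone and medium-chain reductases, electron supply and AhR genes were written gene by gene. Of 232 related genes in the table, 106 had no count and 93 were tested. Of these, 16 or 17.2% passed an adjusted p of 0.05 (edgeR), where 14.8% of all tested genes were called. Among the 16, 14 rose (15.1% of the 93, against 7.14%) and 2 fell (2.15%, against 7.7%). Of those that rose, 3 came from the written list of quinone and medium-chain reductases and 4 from that of electron supply. Of those that fell, 1 came from the written list of AhR genes. The median log2 fold change of the 93 was 0.12. When libraries were scaled by library size only, which moved the median of all tested genes to -0.10, 8 rose and 5 fell, and over all tested genes 548 rose and 1932 fell in place of 899 and 969. The patterns had left out Aldh2, Cyp51 and Cyp2ab1, and with these added, after their values were seen, 17 of 96 (17.7%) were called, 15 as higher and 2 as lower. For the lists as first drawn up, the number called was 9 without RANKL+DI replicate 1, 10 without RANKL+DI replicate 2 and 8 without either vehicle replicate.

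Aldo-keto reductases reduce aldehydes and ketones with NADPH as Cbr1 does. Of their 8 tested genes 3 were called higher (37.5%, against 7.14% of all tested genes) and none was called lower. Akr1a1, the abundant general aldehyde reductase, had 2310 and 2288 CPM with DI and 1450 and 1345 CPM with vehicle. This rise was 0.72 on the log2 scale (standard error 0.043, adjusted p = 6.48e-04, edgeR). Akr1b8, a relative of aldose reductase, rose from 153.9 and 161.3 CPM to 266 and 271 CPM, or by 0.77 on the log2 scale (standard error 0.044, adjusted p = 5.80e-04, edgeR). Akr1c13 rose less, by 0.49 (adjusted p = 0.00830, edgeR). In each of the 3 both DI libraries lay above both vehicle libraries. The groups did not overlap, in either direction, for 58.6% of all tested genes. Akr1a1, Akr1b8 and Akr1c13 were also called by library size only. Akr1c13 and Akr1c12 share 97.1% identity over 90.3% of 1 transcript, and Akr1b8 and Akr1b10 share 95.6% over 29.4%, so reads may have been split between them.

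The list of quinone and medium-chain reductases also held Blvrb. With Nqo1 and Ptgr1 left out, 3 of its 9 tested genes were called higher (33.3%, against 7.14% of all tested genes). Blvrb, which reduces biliverdin and flavins, had 335.7 and 303.5 CPM with DI and 178.5 and 166.2 CPM with vehicle, a rise of 0.89 on the log2 scale (standard error 0.064, adjusted p = 0.00115, edgeR). Vat1 rose by 0.41 (adjusted p = 0.00273) and Zadh2 by 0.28 (adjusted p = 0.0299, edgeR). Vat1 has Rnd2 opposite 8.17% of its exons. Among 24 other short-chain dehydrogenases 2 were called higher, or 8.33%, close to the 7.14% of all tested genes. They were the retinaldehyde reductase Dhrs3, by 0.23 (adjusted p = 0.0295), and Dhrs7, by 0.34 (adjusted p = 0.0354, edgeR). The median of the 24 was 0.11, and 0.0076 by library size only, when none was called.

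The genes that supply P450 with electrons or act beside it followed. Of 10 tested genes of electron supply, 4 were called higher (40%, against 7.14% of all tested genes), 2 of them also by library size only. Cyb5a, cytochrome b5, had 239.5 and 242.8 CPM with DI and 121 and 138 CPM with vehicle (log2 fold change 0.90, standard error 0.069, adjusted p = 0.00140, edgeR). H6pd is given above, and Cyb5r3 and Por, the P450 reductase, rose by 0.20 and 0.19 (adjusted p = 0.0209 and 0.0275, edgeR) but not by library size only, where both were at 0.10 and 0.09. Gm49463 lies opposite 5.65% of the exons of Cyb5r3. Ephx1, the microsomal epoxide hydrolase that opens epoxides made by P450, rose from 62.8 and 61.2 CPM to 122 and 112 CPM, or by 0.91 on the log2 scale (standard error 0.061, adjusted p = 9.16e-04, edgeR). Over 3.69% of its exons it overlaps the pseudogene Gm36961 on its own strand.

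Most P450 genes had no count. Of 96 P450 genes in the list, other than Cyp2s1 and Cyp1b1, 73 had no count and 9 were tested. None was called by edgeR or by DESeq2, and 3 were under an unadjusted p of 0.05, 2 higher and 1 lower. Their log2 fold changes lay between -0.45 and 0.73. By library size only, 1 of the 9 was called as lower. Cyp51, a P450 of cholesterol synthesis that the list had missed, was at 0.15 (adjusted p = 0.119), and the scarce Cyp2ab1 at -0.02 (adjusted p = 0.978, edgeR). Of 3 other tested alcohol dehydrogenases none was called by edgeR or DESeq2, with 1 at an unadjusted p under 0.05. Aldh2, the mitochondrial enzyme that oxidizes acetaldehyde, belonged to the fixed set of named genes but was missed by the pattern of its list. It had 689.6 and 687.5 CPM with DI and 498.7 and 464.2 CPM with vehicle. This rise of 0.52 on the log2 scale (standard error 0.044, adjusted p = 0.00195, edgeR) passed under all 10 alternatives, and Gm42879 lies opposite 2.54% of its exons. Of the 12 other tested aldehyde dehydrogenases 1 was called (8.33%, against 14.8% of all tested genes). Aldh18a1, which makes proline precursors, fell by 0.41 on the log2 scale (adjusted p = 0.0258, edgeR). Aldh18a1 was not called when replicate number was added to the fit. Of 8 tested genes of molybdenum hydroxylases and their cofactor 1 was called higher (12.5%, against 7.14% of all tested genes). This was Mocos, the sulfurase that activates Aox1 and Xdh, at 0.29 on the log2 scale (standard error 0.056, adjusted p = 0.0235, edgeR). Mocos was not called by library size only or when replicate number was added to the fit.

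Of AhR, its partners and its other textbook targets, 8 genes were tested and 1 was called (12.5%, against 14.8% of all tested genes). Ahrr, the repressor of AhR that AhR itself induces, fell from 62.3 and 65.9 CPM to 53.6 and 52.4 CPM (log2 fold change -0.27, standard error 0.063, adjusted p = 0.0380, edgeR). Ahrr was not called by the DESeq2 Wald test or when replicate number was added to the fit. Ahr was at 17.9 and 18.4 CPM with DI and 20.1 and 19.0 CPM with vehicle, a log2 fold change of -0.11 (adjusted p = 0.488). Arnt and Tiparp had log2 fold changes of 0.02 and 0.0044 (adjusted p = 0.935 and 0.968, edgeR). Cyp1a1 had 0 counts in all 4 libraries, which allows a level of at most 0.160 to 0.180 CPM per library (3 counts), and Aldh3a1 had 4 counts in 1 DI library and 0 in the others. Stretches of Ahrr and Xdh transcripts, up to 121 and 365 bases long, match other transcripts at 95% identity or more, and Gm48236 and 4931440P22Rik lie opposite 2.06% of the exons of Ahr and 5.12% of those of Tiparp.

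**Figure D4:**
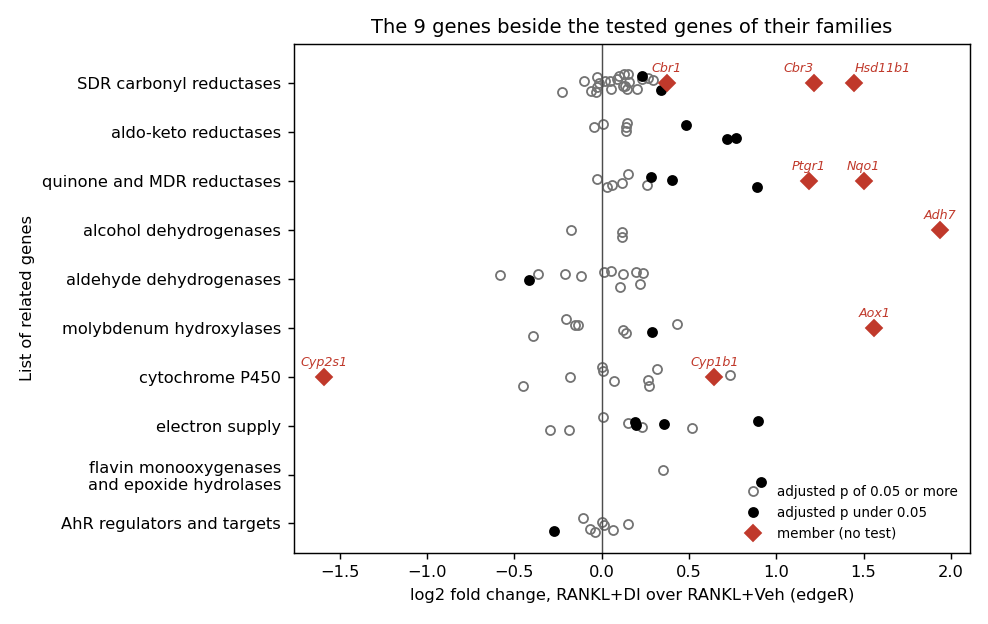
The log2 fold change of every tested gene of the related lists, which lack Aldh2, Cyp51 and Cyp2ab1, by list (circles, filled where the adjusted p was under 0.05 by edgeR), and of the 9 genes in their own family (red diamonds, no test). Filled circles to the right of 0 are 3 of 8 aldo-keto reductases and 4 of 10 genes of electron supply. They are 3 of 9 in the list of quinone and medium-chain reductases, which also holds Blvrb. Over all tested genes 7.14% were called higher. Such circles are absent among the 9 P450 genes, 3 alcohol dehydrogenases, 12 aldehyde dehydrogenases and 8 AhR genes.

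The deposited table also annotates each gene. Its gene ontology terms list oxidoreductase activity and the oxidation-reduction process for all of them. By KEGG, metabolism of xenobiotics by cytochrome P450 holds Cbr1, Cbr3, Adh7, Hsd11b1, Cyp2s1 and Cyp1b1, while Nqo1 is placed in the synthesis of quinones, Aox1 in drug metabolism and retinol metabolism, and Ptgr1 in no pathway.

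Genes outside these families with the most similar profile over the 4 libraries were found for the 7 genes with an average log2 CPM over 1. Likeness was the Euclidean distance between log2(CPM + 0.5) values centred on their mean, among tested genes with an average log2 CPM over 1. The nearest gene was Prdx1 for Ptgr1 (distance 0.026), with 10800 and 10960 CPM with DI and 4883 and 4691 CPM with vehicle. For Cbr3 it was Slc40a1 (0.045), with 182.6 and 196.3 CPM with DI and 79.2 and 81.2 CPM with vehicle. It was Esam for Nqo1 (0.058), Gbe1 for Aox1 (0.14), Rnf113a1 for Cbr1 (0.017), 4933430I17Rik for Cyp1b1 (0.092) and Oasl2 for Cyp2s1 (0.21). With only 4 libraries in 2 groups, such a likeness says little more than that the difference between the groups was of similar size.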

How the data were processed

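RNA was measured by messenger RNA sequencing in 2 RANKL+DI and 2 RANKL+Veh libraries, grouped by their titles. The authors deposited raw counts per gene and library, and FPKM values, which are scaled by gene length and library. Genome builds GRCm38 and mm10 are named in the submitters' processing notes, and the aligner and counter are not given in the sources used here. A second deposited table with the same counts supplied gene ontology and KEGG terms. All 9 genes matched GENCODE M21 by identifier, 7 with the same start and end and 2 (Cbr1 and Cyp1b1) with other limits, and positions are those of the deposited table.

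The analysis used edgeR 4.0.16 under R 4.3.3 (TMM, default filter on low counts, quasi-likelihood test with condition as the only term, Benjamini-Hochberg adjustment over 12590 genes). CPM refer to TMM-scaled library sizes, and standard errors were derived from each F statistic. Libraries of 1 group differed by more than sampling noise (chi-square per degree of freedom 7.57 and 7.74). Alternatives were DESeq2 1.42.0 (size factors and Wald test), library size only, no filter, at least 10 counts in every library, a replicate block and each library left out. They were also applied to the number of the 9 genes called, a step added after the data were seen. Floors cover counting error only. Whether strand was used in counting is not given in the sources used here. Copies were searched with BLAST 2.17.0 (95% identity over 20% of a transcript).

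The 9 genes and the lists were chosen with earlier results of these data known. The lists of quinone and medium-chain reductases, electron supply and AhR genes named each gene. The other families were taken by patterns in the symbol, which missed 3 tested genes, Aldh2, Cyp51 and Cyp2ab1. Counts with these added are an alternative chosen after the data were seen. Named were all 9 genes, related genes with an adjusted p under 0.05 and an average log2 CPM over 1 (16 genes, at most 20), a fixed set of regulators and paralogs whatever their result, and the nearest profile of each gene.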

Additional observations from a re-analysis of the deposited data

How the results depend on the processing

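With 2 libraries in a group, leaving one out assumes that the remaining library varies like the other group. No log2 fold change of the 9 genes turned its direction under any alternative. With each library left out in turn they ranged from 0.31 to 0.43 for Cbr1, 1.19 to 1.25 for Cbr3, 1.17 to 1.20 for Ptgr1, 1.39 to 1.63 for Nqo1, 1.78 to 2.09 for Adh7, 1.37 to 1.73 for Aox1, 0.98 to 2.25 for Hsd11b1, -1.62 to -1.55 for Cyp2s1 and 0.41 to 0.91 for Cyp1b1. By library size only, the values of Cbr1, Cbr3, Ptgr1 and Cyp2s1 moved to 0.27, 1.11, 1.08 and -1.69. A minimum of 10 counts in every library removed Adh7 and Hsd11b1. The number of the 9 genes called ranged from 4 to 6 with a library left out, with 3 to 5 of them higher, and from 6 to 8 under the other alternatives.

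Over all tested genes the number called ranged from 1087 to 1394 with a library left out, 558 to 682 higher and 529 to 712 lower, and by library size only it was 548 higher and 1932 lower. The number of related genes called, 16, was 8 to 10 with a library left out, 8 to 10 higher and 0 lower. By library size only it was 8 higher and 5 lower, and by the DESeq2 Wald test 1 was lower. These counts include genes not among the 16. Of the 16 and Aldh2, 9 or 10 still passed with a library left out and 11 by library size only. With the replicate block 10 were called, 0 of them lower, and the number of the 9 genes called did not change. The samples share only a replicate number (correlation of deviations -0.0501 between replicates 1). Akr1a1, Akr1b8, Akr1c13, Blvrb, Vat1, Ephx1, Cyb5a, H6pd and Aldh2 passed under all 10 alternatives, and the other 8 called genes did not pass under 4 to 7 of them. Depth limits Hsd11b1, Adh7 and Aox1, with 57, 94 and 157 counts over the 4 libraries.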
